A study of Homo sapiens with 12 samples.

Results

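Endothelin 1 (EDN1), endothelin-converting enzyme 1 (ECE1) and adrenomedullin (ADM) were taken by name from the expression tables of 2 human cancer cell lines. They are 3 of 29890 genes in the table of 5637, a bladder carcinoma line, and 3 of 58735 in the table of 786-O, a clear cell renal carcinoma line. They were selected on their measured difference between shCBX7 and control cells in these same libraries, so those differences are described and not tested. RNA-seq compared cells carrying a short hairpin against CBX7 (shCBX7) with cells carrying a control hairpin (sh control), 3 libraries of each per line. CBX7 encodes a subunit of Polycomb repressive complex 1, which keeps genes silent. Both arms were grown in RPMI-1640 with serum, and the labels name no drug. The labels do not say which hairpin was used or whether the cells were a pool or a clone, and the column headers spell the prefix si where the titles have sh. Among the 3 control titles of 5637, 2 begin with a different number, although the cell line label of all 3 is 5637.

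EDN1 encodes the precursor of a potent vasoconstrictor peptide, made mainly by endothelium and also by many epithelial tumours. Furin-type proteases cut the precursor to big endothelin, ECE1 cuts that to the active peptide, and the receptors EDNRA and EDNRB pass the signal on through G proteins. ADM encodes a vasodilator that is amidated by PAM and acts on CALCRL when this receptor is joined by RAMP2 or RAMP3. ACKR3 takes up adrenomedullin without G protein signalling, and neprilysin (MME) degrades both peptides.

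The stretches upstream of the start sites of both peptide genes are shown because they hold matches to short motifs of kinds studied in these promoters. They come from RefSeq (GRCh38.p14, plus strand, 5′ to 3′), where EDN1 has 3 windows of 250 bases before a start site, ECE1 has 4 and ADM has 1. The EDN1 stretch is chr6:12290111-12290360 and ends at the base before the start, and the ADM stretch is chr11:10305043-10305072. Capitals mark matches to a searched motif.
EDN1: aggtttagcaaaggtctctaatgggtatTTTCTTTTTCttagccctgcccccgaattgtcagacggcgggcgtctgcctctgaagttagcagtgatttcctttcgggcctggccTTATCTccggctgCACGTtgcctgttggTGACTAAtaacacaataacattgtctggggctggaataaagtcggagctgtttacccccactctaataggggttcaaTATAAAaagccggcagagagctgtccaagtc
ADM: gctTATAAAgcacaggaaccagagctggcc
In the EDN1 stretch the capitals are, in order, an interferon-response-like match on the reverse strand (GAAA repeated after any 2 bases, 222 to 213 bases before the start), a GATA match on the reverse strand (AGATAA, 136 to 131), the hypoxia response core on the reverse strand (ACGTG, 123 to 119), a variant AP-1 match (TGACTAA, 108 to 102) and a TATA box (TATAAA, 31 to 26). In the ADM stretch the capitals are a TATA box, 27 to 22 bases before the start. No matches overlapped, and both strands were searched in the full 250 bases. Among 35116 windows of the same length in the table, 3.02% held the interferon-like motif, 9.17% the GATA motif, 18.5% the hypoxia core, 1.62% the AP-1 variant and 10.7% the TATA box. The canonical AP-1 letters TGANTCA, held by 6.57% of windows, were in no window of the 3 genes, and the ECE1 windows held none of the motifs searched. Another EDN1 window held the hypoxia core as well, 240 to 236 and 93 to 89 bases before its start. A match describes letters and not binding.

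Levels are FPKM, which divide the fragments of a gene by its length and by a measure of library size. This measure was not the plain sum over listed genes. For control library 1 of 786-O it implied 16693519 reads, where 16961808 were recovered. Whole reads recovered per library summed to between 17744835 and 29198095 in 5637, where some genes gave no whole reads. In 786-O they summed to between 16384151 and 18868874. Libraries of the same arm correlated on the log scale at 0.997 to 0.998 in 5637 and 0.995 to 0.996 in 786-O, and libraries of different arms at 0.995 to 0.996 in 5637 and 0.985 to 0.986 in 786-O. CBX7 averaged 83.3% of its control mean in shCBX7 cells of 5637 and 61.0% in shCBX7 cells of 786-O, with arms that did not overlap. Its RNA was thus only partly lowered, by a log2 difference of -0.18 in 5637 and -0.40 in 786-O. Arms did not overlap for 56.4% of all tested genes in 5637 and 60.3% in 786-O. Of the urothelial line markers 10 of 12 passed the filter on low values in 5637, and of the renal line markers 7 of 12 in 786-O, where PAX8 was present and UMOD and LRP2 were near 0. Summed over the list, urothelial markers ran from 1190 to 1201 FPKM in shCBX7 and from 986 to 1003 FPKM in control libraries of 5637, and renal markers from 50.4 to 51.0 FPKM in shCBX7 and from 69.7 to 71.0 FPKM in control libraries of 786-O. The urothelial sum does not speak for each marker. KRT17 averaged 313 FPKM in shCBX7 and 209 FPKM in control cells of 5637, and KRT5 265 and 189 FPKM. ITGB4 averaged 277 and 310 FPKM and GATA3 10.3 and 11.6 FPKM, while UPK2 and UPK3A lay under the filter. Nothing says that the libraries of an arm are separate cultures, so p-values measure only the spread between libraries, which may be technical.

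EDN1 was more abundant in shCBX7 cells of both lines. In 5637 it stood at 7.63, 7.07 and 6.95 FPKM in the shCBX7 libraries, against 3.17, 3.08 and 2.87 FPKM in the control libraries. The arms did not overlap, and the shCBX7 mean of 7.22 ± 0.363 FPKM was 2.37 times the control mean of 3.04 ± 0.153 FPKM (SD, n = 3 each). In 786-O it stood at 29.4, 27.9 and 26.0 FPKM in the shCBX7 libraries, against 3.74, 3.68 and 3.73 FPKM in the control libraries. All 3 shCBX7 libraries lay far above the controls, with a mean of 27.8 ± 1.72 FPKM that was 7.47 times the control mean of 3.71 ± 0.0344 FPKM (SD, n = 3 each). On the log2(FPKM + 1) scale, where low genes appear to change less than they do, the differences were 1.02 (SE 0.044) in 5637 and 2.61 (SE 0.056) in 786-O, shCBX7 minus control. These rank 12 from the highest of 12689 tested genes in 5637 and 8 from the highest of 13220 in 786-O. The values rest on 307, 422 and 460 reads in shCBX7 and 142, 181 and 178 in control libraries of 5637, and on 1134, 945 and 941 reads in shCBX7 and 127, 137 and 125 in control libraries of 786-O. EDN1 lies on chromosome 6 from 12290363 to 12297194, plus strand (ENSG00000078401, GRCh38).

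ECE1, the enzyme that releases the active peptide, was also higher in shCBX7 cells, by a smaller factor. In 5637 it stood at 33.1, 33.0 and 32.5 FPKM in the shCBX7 libraries, against 28.2, 28.5 and 28.2 FPKM in the control libraries. The arms did not overlap although the shCBX7 mean was only 1.16 times the control mean (32.9 ± 0.300 against 28.3 ± 0.179 FPKM, SD, n = 3 each). In 786-O it stood at 63.6, 61.9 and 64.5 FPKM in the shCBX7 libraries, against 37.8, 35.3 and 36.6 FPKM in the control libraries. The shCBX7 mean there was 1.73 times the control mean (63.3 ± 1.34 against 36.6 ± 1.26 FPKM, SD, n = 3 each), again with no overlap. The log2 differences were 0.21 (SE 0.018) in 5637 and 0.78 (SE 0.045) in 786-O, which rank 1432 and 522 from the highest. ECE1 lies on chromosome 1 from 21217247 to 21345572, minus strand (ENSG00000117298).

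ADM, the vasodilator, stood on opposite sides of its control in the 2 lines. In 5637 it was at 64.4, 69.4 and 68.1 FPKM in the shCBX7 libraries, against 79.2, 75.2 and 76.8 FPKM in the control libraries. Every shCBX7 library lay below every control library, and the shCBX7 mean of 67.3 ± 2.60 FPKM was 0.873 times the control mean of 77.1 ± 1.99 FPKM (SD, n = 3 each). In 786-O it was at 153, 150 and 138 FPKM in the shCBX7 libraries, against 59.2, 55.3 and 55.4 FPKM in the control libraries. Every shCBX7 library lay above every control library there, and the shCBX7 mean of 147 ± 8.10 FPKM was 2.60 times the control mean of 56.6 ± 2.22 FPKM (SD, n = 3 each). The log2 differences were -0.19 (SE 0.033) in 5637, rank 1303 from the lowest, and 1.36 (SE 0.055) in 786-O, rank 113 from the highest. ADM lies on chromosome 11 from 10304680 to 10307397, plus strand (ENSG00000148926). These spans are those of GENCODE, whose starts differ from the RefSeq starts used for the promoter stretches, so the ADM stretch lies inside the GENCODE span.

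**Figure D1:**
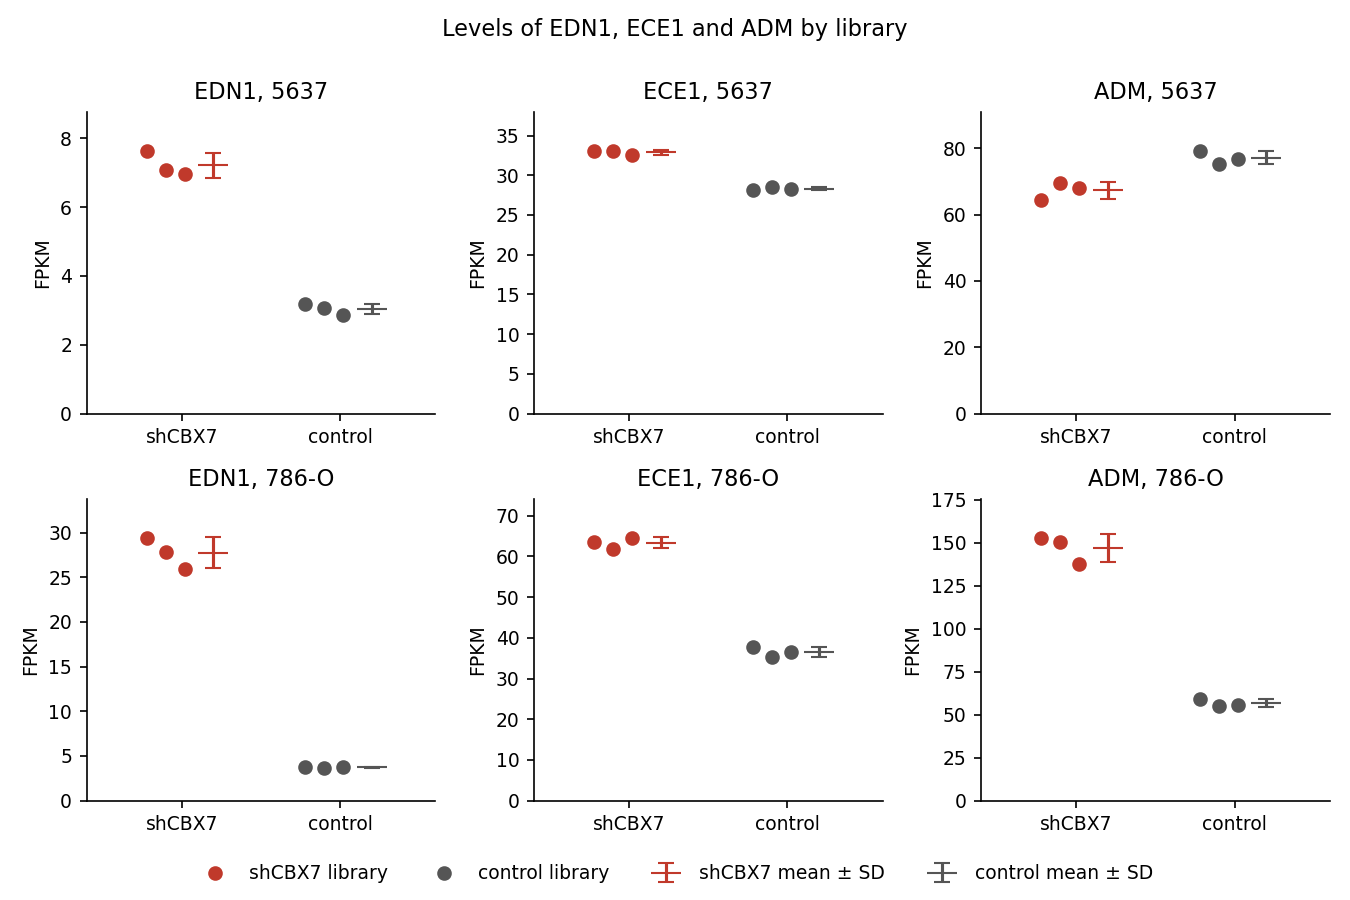
FPKM of EDN1, ECE1 and ADM in each library of 5637 and 786-O, shCBX7 left of control. Points are libraries, and bars are arm means ± SD (n = 3 each). EDN1 in 786-O lies at 26.0 to 29.4 FPKM in shCBX7 and 3.68 to 3.74 FPKM in control libraries, and ADM lies below its control in 5637 and above it in 786-O.

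The arms did not overlap for any of the 3 genes in either line. This holds for 56.4% of tested genes in 5637 (30.7% higher and 25.7% lower in shCBX7) and 60.3% in 786-O (29.2% higher and 31.0% lower), and since these contrasts chose the genes, nothing is read from the count. ADM had the highest level and EDN1 the lowest in every library, on the FPKM scale, which is per gene length. No neighbours in that order overlapped within an arm. The level of ECE1 was 4.33 to 4.68 times that of EDN1 in shCBX7 libraries of 5637 and 8.89 to 9.82 times in its control libraries. In 786-O it was 2.16 to 2.48 times in shCBX7 and 9.59 to 10.1 times in control libraries. ADM was 8.44 to 9.81 times the level of EDN1 in shCBX7 and 24.4 to 26.7 times in control libraries of 5637, and 5.19 to 5.40 times in shCBX7 and 14.9 to 15.8 times in control libraries of 786-O. EDN1 thus lay closer to both other genes in shCBX7 than in control libraries of either line. ADM was 1.95 to 2.10 times the level of ECE1 in shCBX7 and 2.64 to 2.81 times in control libraries of 5637, but 2.13 to 2.43 times in shCBX7 and 1.51 to 1.57 times in control libraries of 786-O. The tables of the lines were normalized separately, so levels are set against each other within a line.

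In bulk RNA, fewer cells of a type and less RNA per cell cannot be told apart. Endothelial markers, which mark the main source of EDN1 in tissue, summed to 1.66 to 1.78 FPKM in shCBX7 and 2.0 to 2.47 FPKM in control libraries of 5637, where 1 of 11 listed markers in the table passed the filter. In 786-O they summed to 1.67 to 2.06 FPKM in shCBX7 and 1.12 to 1.48 FPKM in control libraries, with 0 of 12 past the filter. CDH5 and EMCN, which define endothelium, were at 0 in every 786-O library, and EMCN was at 0 in every 5637 library. PECAM1 averaged 0.305 FPKM in shCBX7 and 0.188 FPKM in control cells of 786-O, and ROBO4 0.410 and 0.185 FPKM, both higher in every shCBX7 library, while TIE1 averaged 0.335 and 0.345 FPKM. The part of these markers in the EDN1 values was not tested.

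Among 9222 genes averaging 1 FPKM or more in both lines, those nearest to each gene were named by the root mean square difference between log2 values taken against the control mean of their line, over all 12 libraries. TPM4, a tropomyosin that binds actin filaments, came nearest to EDN1 at 0.161, where the median gene stood at 1.41. Its log2 differences were 0.92 in 5637 and 2.31 in 786-O, shCBX7 minus control. SPOCD1, GBP1 (an interferon-induced GTPase), ARHGDIB and PDCD1LG2 (a ligand of the PD-1 receptor) followed at 0.350 to 0.422. FOXP4, a forkhead transcription factor, came nearest to ECE1 at 0.0302, ahead of NTN4, NFKBIA, BCAR3 and EXT1 at 0.0342 to 0.0404, where the median gene stood at 0.429. HMGA1, a chromatin protein, came nearest to ADM at 0.0806, ahead of TMEM156, C1S, HOMER2 and the stress cytokine GDF15 at 0.0832 to 0.101, where the median gene stood at 0.712. The 4 genes after TPM4 matched EDN1 less closely, SPOCD1 and ARHGDIB chiefly in 5637 (log2 differences 0.34 and 0.26). Values are taken against the control mean, so control libraries lie close to it for every gene. Nearness therefore mostly means a similar shCBX7 difference in each line, not shared variation between single libraries. A gene without a change lies about as far away as the named gene itself moved. The median thus mostly restates the difference on which EDN1, ECE1 or ADM was selected, and is no independent yardstick. The lines contribute 6 libraries each and the libraries of an arm share their source, so these are descriptions.

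**Figure D2:**
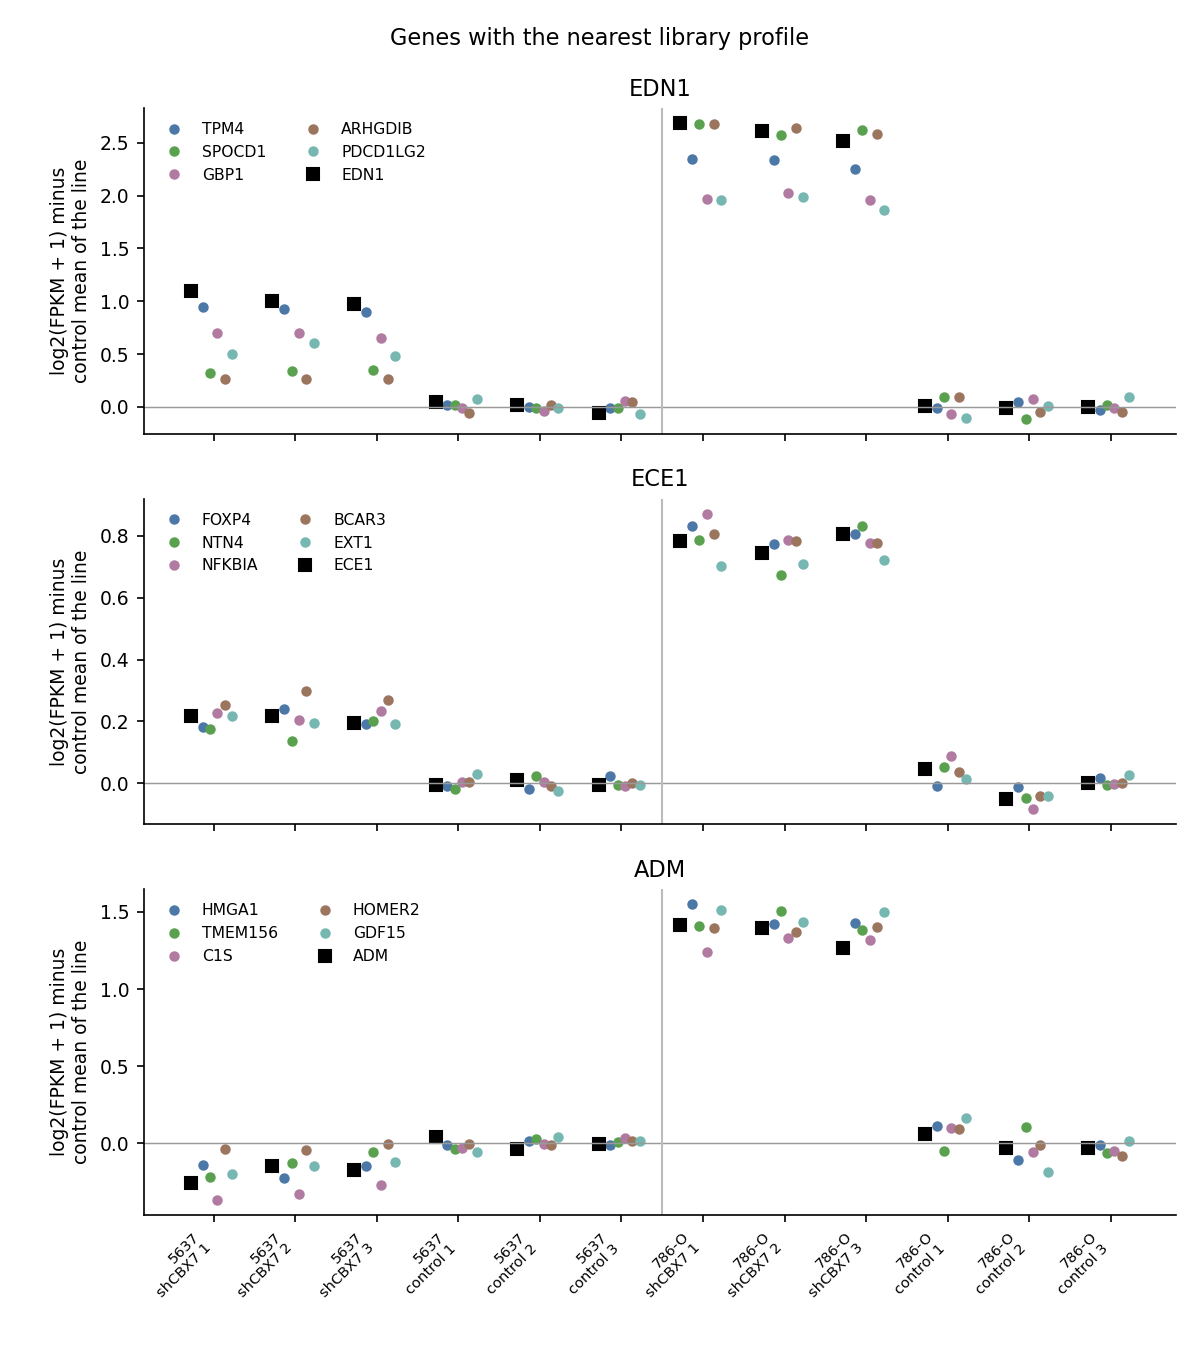
log2(FPKM + 1) minus the control mean of the line for EDN1, ECE1 and ADM (squares) and the 5 genes nearest to each (circles) in all 12 libraries, shCBX7 left of control within a line. TPM4 differs least from EDN1 over all 12 libraries, at 0.92 in 5637 and 2.31 in 786-O, and the genes near ADM lie below or close to 0 in 5637 shCBX7 libraries and above 1 in 786-O shCBX7 libraries.

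None of the other tested genes of the endothelin axis passed the test in 5637, while 3 proteases of the axis rose in 786-O. In 5637, 0 of 6 tested genes of 12 listed passed limma at an adjusted p of 0.05, where 44.5% of all tested genes did (24.4% higher and 20.2% lower). An unadjusted p under 0.05 was reached by 1 of them, and a voom fit on recovered reads called 1, PCSK7 (limma-voom adjusted p = 6.77e-04). The convertase FURIN was at 41.0 ± 1.44 FPKM in shCBX7 and 39.6 ± 0.965 FPKM in control cells, and neprilysin (MME) at 6.65 ± 0.0913 and 6.62 ± 0.122 FPKM (SD, n = 3 each). The receptor EDNRA was at 2.64, 3.12 and 2.94 FPKM in shCBX7 and 2.58, 2.73 and 2.45 FPKM in control libraries, a log2 difference of 0.12 (limma adjusted p = 0.120) that passed without shCBX7 library 1 (0.17, limma adjusted p = 0.0357). The arms of EDNRA overlap. PCSK5, PCSK6 and PCSK7, convertases like furin, had log2 differences of -0.00, -0.01 and 0.12, with none called. PCSK7 (limma adjusted p = 0.0597) was higher in every shCBX7 library than in any control library, as were 30.7% of all tested genes. It also passed without the filter (limma adjusted p = 0.0490), with quantile normalization (0.0340) and without the mean-variance trend (0.00884). The other 6 listed genes lay under the filter on low values, and EDN3 and ECEL1 were listed at 0 in 5637.

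In 786-O, 3 of 5 tested genes of the endothelin axis rose and 1 fell, where 51.0% of all tested genes were called (24.7% higher and 26.2% lower). FURIN rose to 31.3, 30.3 and 31.5 FPKM in shCBX7 libraries, against 21.0, 18.0 and 19.4 FPKM in control libraries (log2 difference 0.65, SE 0.061, limma adjusted p = 1.18e-04). MME rose to 3.15, 3.25 and 3.15 FPKM in shCBX7 libraries, against 1.66, 1.85 and 1.92 FPKM in control libraries (0.58, SE 0.063, limma adjusted p = 2.27e-04). The convertase PCSK5 rose to 1.46 ± 0.0832 FPKM in shCBX7 cells, against 0.863 ± 0.0295 FPKM in control cells (SD, n = 3 each, limma adjusted p = 0.00228). FURIN, MME and PCSK5 thus had higher levels in every shCBX7 library than in any control library. EDN2, a second endothelin peptide, fell to 0.193, 0.183 and 0.0342 FPKM in shCBX7 libraries, against 1.39, 0.965 and 1.59 FPKM in control libraries (log2 difference -1.02, SE 0.125, limma adjusted p = 4.15e-04), on 1 to 43 reads. EDNRA had 0 reads in all 6 libraries of 786-O, where 3 reads would correspond to 0.0373 to 0.0429 FPKM, a limit for counting error only. EDNRB had 1 to 3 reads per library. PCSK7 was at 1.07 FPKM in shCBX7 and 0.816 FPKM in control cells and was not called (limma adjusted p = 0.0858), but was called without the mean-variance trend (limma adjusted p = 0.0413) and with voom (limma-voom adjusted p = 0.00328).

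The adrenomedullin axis held called genes in both lines. In 5637, 4 of 8 tested genes of 16 listed rose and 0 fell, where 24.4% of all tested genes rose and 20.2% fell. ADM2, the related peptide intermedin, rose to 2.70, 2.41 and 2.53 FPKM in shCBX7 libraries, against 2.10, 2.08 and 2.04 FPKM in control libraries (log2 difference 0.20, SE 0.041, limma adjusted p = 0.00681). CRCP, a component of receptors for the related peptide CGRP, rose to 13.0 ± 0.168 FPKM in shCBX7 cells, against 11.7 ± 0.431 FPKM in control cells (limma adjusted p = 0.00931), and the peptide-degrading enzyme IDE rose to 5.99 ± 0.129 FPKM in shCBX7 cells, against 5.24 ± 0.204 FPKM in control cells (limma adjusted p = 0.00684, SD, n = 3 each). RAMP2, which turns CALCRL into an adrenomedullin receptor, rose to 1.63, 1.25 and 1.26 FPKM in shCBX7 libraries, against 1.03, 1.09 and 0.972 FPKM in control libraries (limma adjusted p = 0.0372), a call that rests on 26 to 47 reads. Its call was lost without shCBX7 library 1 (limma adjusted p = 0.0639) and without control library 1, 2 or 3 (0.0827, 0.0620 and 0.103), and also without the filter (0.0803), with median centring (0.0505) and with voom (0.115). ACKR3 was at 65.1 ± 0.705 FPKM in shCBX7 and 66.8 ± 1.10 FPKM in control cells, and PAM at 12.3 ± 0.163 and 11.7 ± 0.361 FPKM (SD, n = 3 each), with neither called. RAMP1, which makes CALCRL a CGRP receptor, was at 3.04 ± 0.527 FPKM in shCBX7 and 3.48 ± 0.592 FPKM in control cells (SD, n = 3 each, limma adjusted p = 0.332). CALCRL, the receptor that RAMP1 and RAMP2 join, had only 3 to 11 reads per library of 5637 and lay under the filter. RAMP3 had 0 reads there. PAM passed without control library 3 (limma adjusted p = 0.0428). ADM5 was at 0.424 FPKM in shCBX7 and 0.636 FPKM in control cells, on 11 to 36 reads, and was not called (limma adjusted p = 0.0608). It was lower in every shCBX7 library than in any control library, as were 25.7% of all tested genes. It passed as lower without shCBX7 library 2 (limma adjusted p = 0.0375), with median centring (0.0461) and without the mean-variance trend (0.0372).

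In 786-O, 4 of 7 tested genes of the adrenomedullin axis rose and 1 fell, where 24.7% of all tested genes rose and 26.2% fell. ACKR3, the scavenging receptor, rose to 15.5, 14.4 and 16.7 FPKM in shCBX7 libraries, against 6.02, 4.64 and 5.64 FPKM in control libraries (log2 difference 1.37, SE 0.093, limma adjusted p = 2.47e-05). PAM, the amidating enzyme, rose to 33.4, 33.2 and 32.3 FPKM in shCBX7 libraries, against 24.6, 26.7 and 25.2 FPKM in control libraries (0.36, SE 0.047, limma adjusted p = 5.73e-04). ADM2 rose to 4.97, 4.42 and 4.29 FPKM in shCBX7 libraries, against 3.12, 3.20 and 3.27 FPKM in control libraries (0.40, SE 0.064, limma adjusted p = 0.00146). In these 3 genes the arms did not overlap. ADM5 fell to 0.550 FPKM in shCBX7 cells, against 0.956 FPKM in control cells (limma adjusted p = 0.0183, on 12 to 34 reads), a call lost without shCBX7 library 2 (0.0587) or control library 2 (0.0618). The ADM5 call was also lost with voom (limma-voom adjusted p = 0.0538). IDE was at 3.04 FPKM in shCBX7 and 3.74 FPKM in control cells and was not called. It passed as lower without control library 1 (limma adjusted p = 0.0192) and with voom (limma-voom adjusted p = 0.0299). CALCRL, the receptor itself, had 2 to 7 reads per library, and RAMP3 had 0. CRCP was at 8.97 FPKM in shCBX7 and 8.83 FPKM in control cells and was not called.

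**Figure D3:**
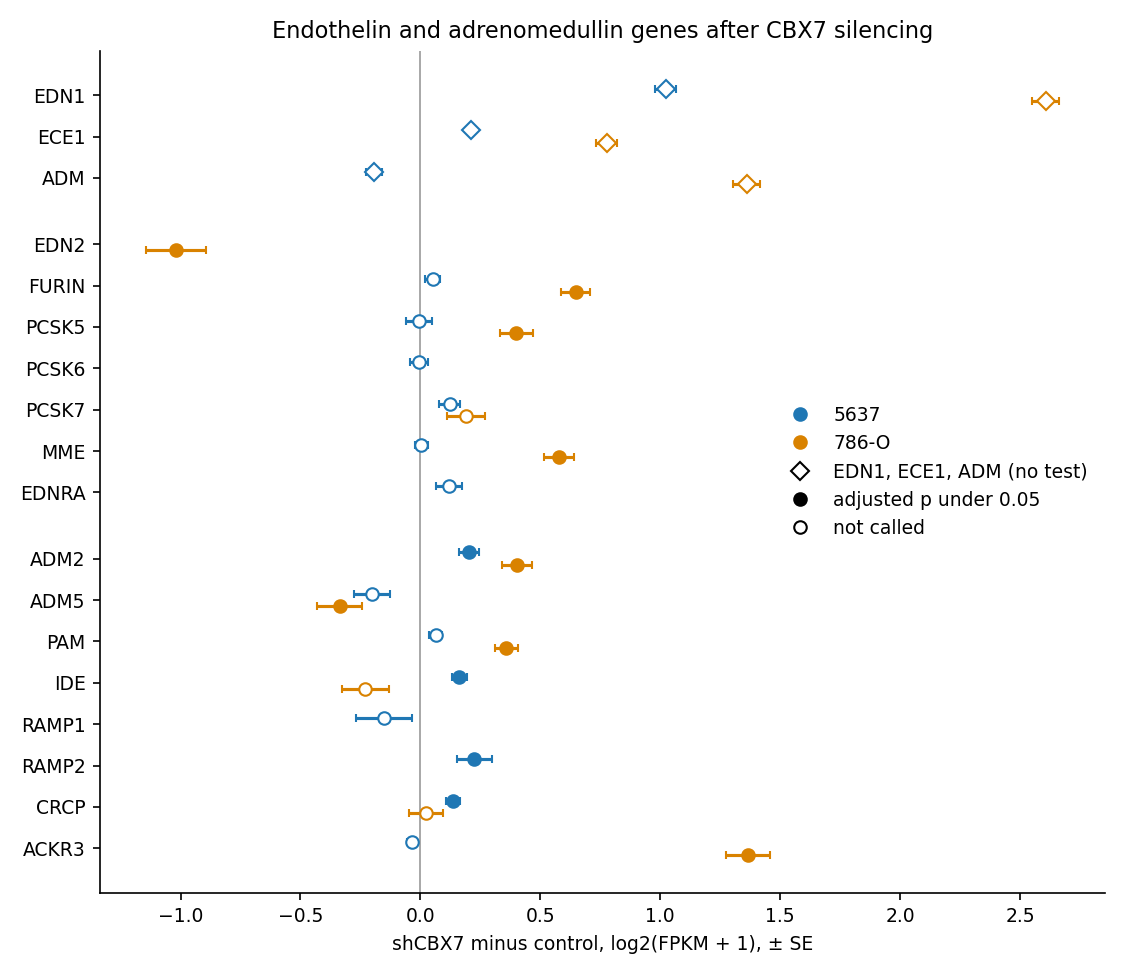
log2 difference of log2(FPKM + 1), shCBX7 minus control, for tested genes of both axes in 5637 and 786-O, with bars for the SE of the limma fit. Diamonds are EDN1, ECE1 and ADM, which were not tested, and filled circles had a limma adjusted p under 0.05. ACKR3 is at 1.37 in 786-O and -0.04 in 5637, and EDN2 at -1.02 in 786-O.

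The difference between the lines was tested for 15 axis genes in a limma fit over all 12 libraries, where 53.3% of all tested genes passed (24.3% with the change in 786-O above that in 5637). Of these, 5 lay under the filter on low values in 1 line, among them EDNRA, RAMP1, RAMP2 and PCSK6 in 786-O, so that their difference mostly restates the change in 5637. Among the 10 past the filter in both lines, the change in 786-O lay above that in 5637 for 6 and below it for 1. ACKR3 differed by 1.40 (SE 0.101, limma adjusted p = 4.95e-07), FURIN by 0.60 (SE 0.070, limma adjusted p = 2.57e-05), MME by 0.57 (SE 0.055, limma adjusted p = 5.53e-06) and PAM by 0.29 (SE 0.051, limma adjusted p = 4.69e-04) on the log2 scale, 786-O minus 5637. So the scavenger, the proteases FURIN and MME and the amidating enzyme differed between the lines in the size of their change. The protease PCSK5 differed as well, by 0.40 (SE 0.066, limma adjusted p = 3.12e-04). IDE differed by -0.39. The ADM2 difference of 0.20 (limma adjusted p = 0.0294) was lost without any of 6 libraries, shCBX7 libraries 2 and 3 and control libraries 1 and 2 of 5637 and shCBX7 library 1 and control library 1 of 786-O, with limma adjusted p from 0.0513 to 0.0747. It was also lost with a pseudocount of 0.1 (limma adjusted p = 0.0694) and without the filter (0.0504).

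Genes that carry the receptor signal moved in both directions. Of 36 listed, 14 of 32 tested rose and 6 fell in 5637 (median log2 difference 0.05, against 0.01 over all tested genes), and 10 of 33 rose and 11 fell in 786-O (median -0.04, against -0.01). Of all tested genes, 44.5% were called in 5637 and 51.0% in 786-O. Without control library 2, 13 genes in all were called in 5637, against 20 with every library. Over all tested genes the calls also dropped, to 4854 of 12683, against 5651 of 12689 with every library. In 5637 the Gq-family subunit GNA11 rose to 13.7 FPKM in shCBX7 cells, against 10.9 FPKM in control cells (limma adjusted p = 1.42e-04), and GNA13, a G protein subunit, fell to 53.3 FPKM, against 66.7 FPKM (limma adjusted p = 2.65e-04). In 786-O, RGS4, which shortens Gq signalling, rose to 3.0 ± 0.286 FPKM in shCBX7 cells, against 0.513 ± 0.0152 FPKM in control cells (SD, n = 3 each, limma adjusted p = 9.92e-06). The calcium release channel ITPR2 rose to 3.82 FPKM in shCBX7 cells, against 1.72 FPKM in control cells, and ITPR3 fell to 6.56 FPKM, against 12.6 FPKM, so 2 channels of the same family moved in opposite directions.

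Other vasoactive mediators rose in 4 and fell in 2 of 13 tested genes of 34 listed in 5637, and rose in 9 and fell in 3 of 15 in 786-O, where 44.5% and 51.0% of all tested genes were called. In 786-O both bradykinin receptors rose, BDKRB2 to 3.73 ± 0.410 FPKM in shCBX7 cells, against 0.856 ± 0.142 FPKM in control cells (limma adjusted p = 2.50e-05), and BDKRB1 to 2.50 ± 0.236 FPKM, against 0.584 ± 0.052 FPKM (SD, n = 3 each, limma adjusted p = 2.53e-05). The vasodilator peptide gene APLN fell to 3.15 FPKM in shCBX7 cells, against 5.68 FPKM in control cells. In 5637 PTHLH, a peptide that relaxes smooth muscle, rose to 13.1 FPKM in shCBX7 cells, against 10.2 FPKM in control cells (limma adjusted p = 1.19e-04), and PTGER4, a prostaglandin E2 receptor, rose to 3.04 FPKM, against 2.07 FPKM. PTGES, which makes prostaglandin E2, fell to 131 FPKM in shCBX7 cells, against 152 FPKM in control cells.

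Of 30 listed regulators of EDN1 or ADM, 5 rose and 13 fell of 30 tested in 5637 (median -0.09), and 10 rose and 6 fell of 29 in 786-O (median 0.10), beside the same 44.5% and 51.0% of all tested genes. FOSL1, an AP-1 subunit, rose in 5637 to 145 ± 3.45 FPKM in shCBX7 cells, against 105 ± 1.22 FPKM in control cells (SD, n = 3 each, limma adjusted p = 3.63e-05). JUNB, another AP-1 subunit, fell in 5637 to 97.4 FPKM in shCBX7 cells, against 112 FPKM in control cells (limma adjusted p = 4.45e-04). KLF4 fell there to 9.01 FPKM, against 10.8 FPKM (limma adjusted p = 2.65e-04). NFKB1 rose to 7.67 FPKM in shCBX7 cells of 5637, against 5.83 FPKM in control cells, but fell in 786-O to 5.95 FPKM, against 9.03 FPKM. In 786-O the TGF-beta receptor TGFBR2 rose to 68.2 FPKM in shCBX7 cells, against 45.1 FPKM in control cells, the serum response factor SRF rose to 34.1 FPKM, against 22.4 FPKM, and the coactivator WWTR1 fell to 14.8 FPKM, against 26.1 FPKM.

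The genome neighbours within 500 kb of the 3 genes numbered 58, of which 16 were tested in 5637 and 20 in 786-O. In 5637, 3 rose, 4 fell and 9 were not called, and in 786-O 7 rose, 4 fell and 9 were not called. These shares lie near the 44.5% and 51.0% called among all tested genes. Near ADM in 786-O, 5 of 7 rose and 1 fell, where 24.7% of all tested genes rose and 26.2% fell. AMPD3, an AMP deaminase gene that starts 3.63 kb past the ADM start, rose to 4.93, 4.55 and 5.16 FPKM in shCBX7 libraries, against 2.49, 2.55 and 2.83 FPKM in control libraries (log2 difference 0.70, SE 0.066, limma adjusted p = 1.20e-04). In 5637 AMPD3 was at 4.54 FPKM in shCBX7 and 4.40 FPKM in control cells (limma adjusted p = 0.394). AC080023.1, annotated as antisense and starting 0.976 kb before ADM, rose in 786-O to 1.30 FPKM in shCBX7 cells, against 0.614 FPKM in control cells, on 5 to 21 reads, and the counting strand is not given in the sources used here. CTR9 and EIF4G2, farther downstream of ADM, rose in both lines, CTR9 to 12.9 FPKM in shCBX7 cells of 5637, against 10.5 FPKM in control cells, and to 8.41 FPKM in shCBX7 cells of 786-O, against 6.54 FPKM in control cells. The call of EIF4G2 in 786-O was lost with quantile normalization (limma adjusted p = 0.0896).

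Near ECE1, 1 of 8 tested genes rose and 3 fell in 5637, where 44.5% of all tested genes were called. In 786-O, 1 of 8 rose and 2 fell, where 51.0% were called. HSPG2, the heparan sulfate proteoglycan perlecan, fell in 786-O to 2.50 ± 0.194 FPKM in shCBX7 cells, against 4.86 ± 0.261 FPKM in control cells (SD, n = 3 each, limma adjusted p = 8.44e-05). In 5637 HSPG2 was at 36.8 FPKM in shCBX7 and 37.2 FPKM in control cells (limma adjusted p = 0.640). Near EDN1, ADTRP, a regulator of tissue factor inhibition, rose in 786-O to 1.11 FPKM in shCBX7 cells, against 0.502 FPKM in control cells (limma adjusted p = 0.00461). HIVEP1, the neighbour of EDN1 tested in both lines that is no pseudogene, was not called in 5637 (log2 difference 0.01) or in 786-O (0.20, limma adjusted p = 0.0600). RPL15P3, a processed pseudogene near EDN1, fell in 786-O (log2 difference -0.54, limma adjusted p = 6.55e-04), but its reads can belong to other copies, so the value is uncertain. Of the called neighbours, SBF2 in 5637 lost its call without 5 of 6 libraries (limma adjusted p from 0.0609 to 0.0894), and RNF141 in 786-O without 5 of 6 (0.0714 to 0.128). SH2D5 lost its call in 5637 without control library 2 (limma adjusted p = 0.0508) and in 786-O without shCBX7 library 1 or 2 or control library 2 or 3 (0.0821 to 0.138).

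**Figure D4:**
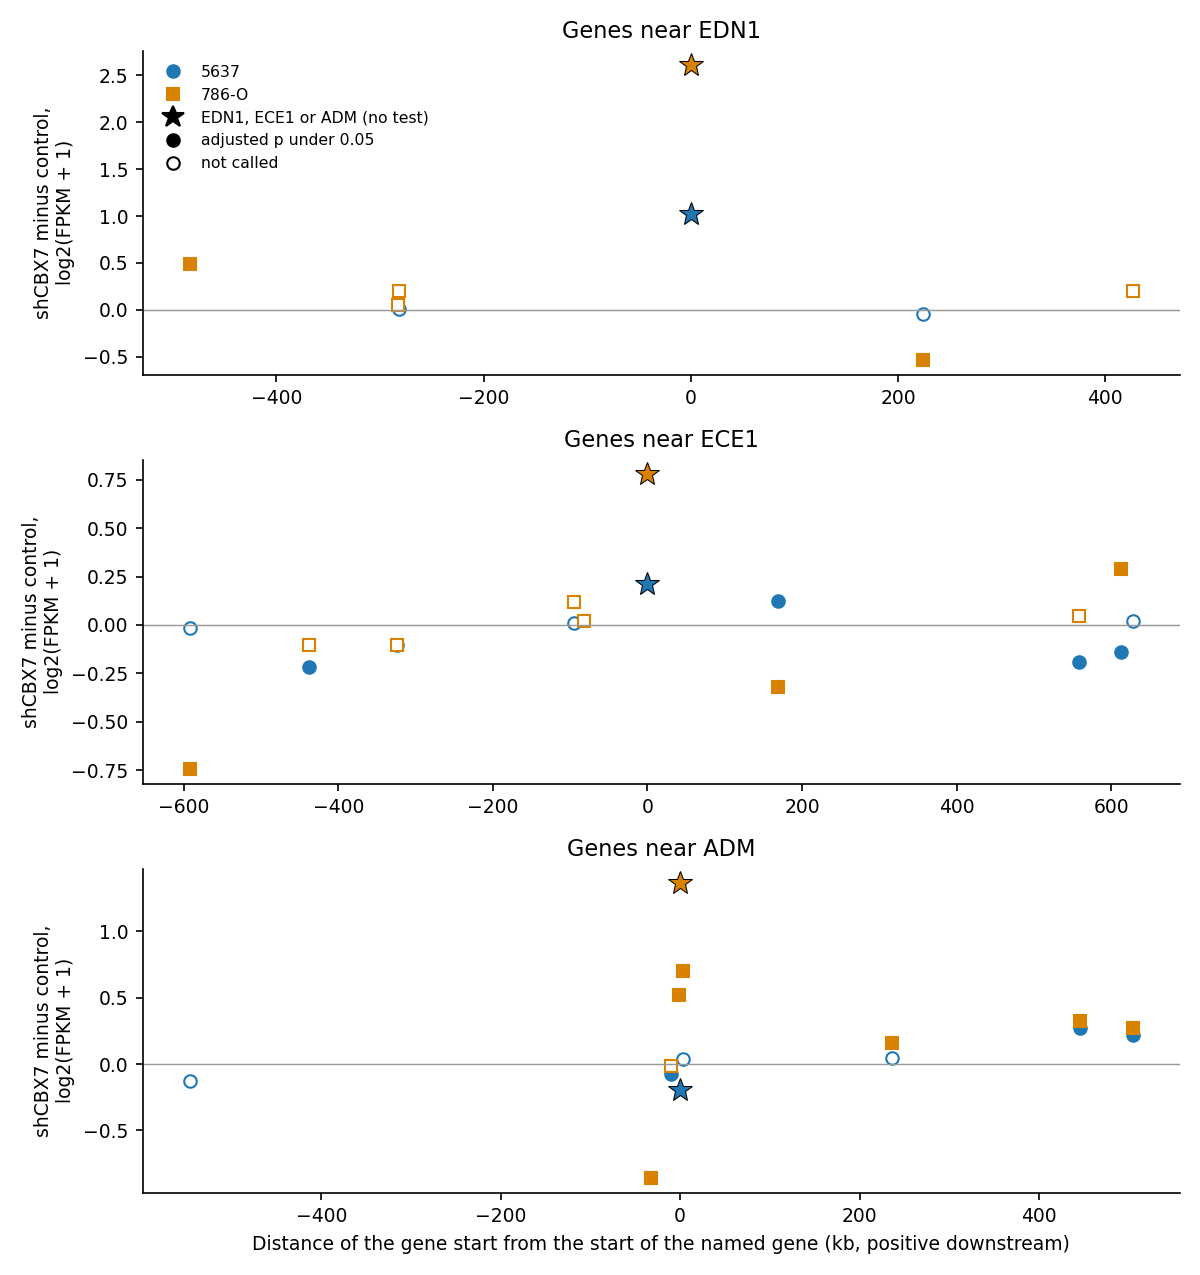
log2 difference of log2(FPKM + 1), shCBX7 minus control, for tested neighbours of EDN1, ECE1 and ADM by distance of their start from the start of the gene in kb (positive downstream). Circles are 5637, squares 786-O, stars the named gene itself, and filled symbols had a limma adjusted p under 0.05. Near ADM in 786-O AMPD3 lies at 0.70, while in 5637 it lies at 0.04.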

How the data were processed

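RNA-seq libraries were made with a directional NEBNext kit, per the labels' protocols, and the authors deposited a table of FPKM values for each line. For the aligner, counter and strand setting, nothing is stated in the labels or headers. The submitters' processing notes name a mouse build although the samples are human. Each of the 58735 genes listed for 786-O has the start, end and strand of GENCODE release 29 (GRCh38). By symbol, 29854 of 29890 genes of 5637 (99.9%) were matched to it. Control columns of 5637 could be tied to their group only, so control library numbers of 5637 are those of the table. No libraries of a line were identical (15 pairs compared per line).

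Genes averaging 0.5 FPKM or more in a line were tested on log2(FPKM + 1) with limma 3.58.1 (R 4.3.3, mean-variance trend, Benjamini-Hochberg adjustment, threshold 0.05). The difference between lines was an interaction term. The tests were also run on simulated counts with independent libraries and few changed genes. That setting differs from these data, so the run says little about the calls given here. Reads were recovered as whole multiples (tolerance 0.01) for all 58735 genes of 786-O and 28077 of 29890 (93.9%) of 5637; ECE1 in 5637 was not among them. A voom fit on these reads, added after the data were seen, called 5807 of 11618 genes in 5637 and 7247 of 13220 in 786-O.

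The members and lists were chosen with earlier results of these data known. Tested axis genes could be named, with the 4 genes of smallest p of each other list, called neighbours, and the 5 nearest profiles. HIVEP1 and genes under the filter were named after their values were seen. An adrenomedullin axis gene that enters the counts is not reported here. Alternatives were a pseudocount of 0.1, no filter, quantile normalization, median centring, no trend, each library left out, and the replicate number as a block. Intervals for zero reads use 3 reads.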

Additional observations from a re-analysis of the deposited data

Results flagged for a closer look

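In the limma fit over both lines, 15 axis genes were tested for a difference between 786-O and 5637 in their change (shCBX7 minus control, log2 scale). Of these, 8 described here passed, where 53.3% of all tested genes did, so nothing is read from the count. The difference, 786-O minus 5637, was 1.40 for ACKR3, 0.57 for MME, 0.60 for FURIN, 0.40 for PCSK5, 0.29 for PAM and 0.20 for ADM2. It was -0.39 for IDE and -0.35 for RAMP2. RAMP2 had 1 to 5 reads per library in 786-O, below the filter of that line, so its value says little of 786-O. With a pseudocount of 0.1 the RAMP2 difference was -1.01 (limma adjusted p = 0.0584). The call of ADM2 was lost without any of 6 libraries. It was also lost with a pseudocount of 0.1 (limma adjusted p = 0.0694) and without the filter (0.0504).

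For ADM and for 6 other genes named by the rule, listed next, every shCBX7 library lay on 1 side of all control libraries in 5637 and on the other side in 786-O, as also for ACKR3. Other listed genes that the rule does not name share this pattern. Arms without overlap are common among all tested genes. In 5637 shCBX7 lay higher for 30.7% and lower for 25.7%, and in 786-O for 29.2% and 31.0%. The share of all genes on opposite sides in the 2 lines was not counted, so nothing is read from the number of genes. The difference between lines is given here with no test. It came to 1.55 for ADM, 0.47 for PTGES, 0.69 for KLF4, 0.86 for JUNB and 0.43 for SH2D5, and to -0.87 for NFKB1 and -0.45 for EIF4G3. Arms hold 3 libraries, too few to look for a library that stands apart.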

How the results depend on the processing

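The 3 genes kept their direction in every alternative that gave them a value (voom gave none for ECE1 in 5637). EDN1 moved to 1.22 with a pseudocount of 0.1 and 1.24 with voom in 5637, and to 2.87 and 2.90 in 786-O, and ECE1 to 0.20 with median centring in 5637. Without each library in turn, EDN1 ran from 0.99 to 1.05 in 5637 and 2.57 to 2.65 in 786-O, ECE1 from 0.21 to 0.22 and 0.75 to 0.80, and ADM from -0.22 to -0.16 and 1.33 to 1.41. The count of endothelin axis calls in 5637 was 1 (PCSK7) without the filter, with quantile normalization, without the trend and with voom, and ran from 0 to 1 without each library. The other counts, without each library, ran for 5637 and 786-O from 3 to 5 and 4 to 6 (adrenomedullin axis), 13 to 19 and 19 to 21 (receptor signalling), 5 to 6 and 9 to 12 (vasoactive mediators), 16 to 19 and 16 to 18 (regulators), 5 to 7 and 9 to 10 (neighbours), stayed at 4 for the endothelin axis in 786-O, and ran from 8 to 10 for the difference between lines. Over all tested genes, the calls without each library ran from 4678 to 5123 in 5637, against 5651 with every library. In 786-O they ran from 5704 to 6734, against 6736. Genes near 0 changed sign without being called. In 5637 MME came to -0.010 with quantile normalization and -0.0098 with median centring, and to -0.0070 to 0.016 without each library; PCSK5 came to 0.013 with quantile normalization and -0.039 to 0.020 without each library, and PCSK6 to -0.035 to 0.016. CRCP in 786-O reached -0.018 to 0.088, and the PCSK6 difference came to 0.00074 with quantile normalization, 0.024 with median centring and -0.034 to 0.017 without each library. Same-numbered libraries of 786-O correlated in their deviations at 0.0833, 0.0765 and 0.057, and every library correlated best with its own number; the replicate block moved the 786-O calls to 6723, against 6736, and EDN1 was 2.61 there, while RNF141 (limma adjusted p = 0.0511) and SH2D5 (0.0831) lost their calls. No paired analysis was possible because the numbers in the 5637 control columns cannot be tied to samples by their titles, so the block was not run for 5637 or for the difference between lines. Depth limits EDN2, ADM5, RAMP2 and AC080023.1, which rest on few reads.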
